A study of Ciona robusta with 6 samples.

Results

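The genes described here are the 72 C2H2 zinc finger genes among the 793 genes listed by symbol in an RNA-seq table of hearts from adult Ciona robusta, a tunicate. They were chosen by name alone, as every symbol that starts with zf(c2h2) once a leading ci- is removed, and 5 of them carry that prefix. Hearts of wild caught adult animals, with no experimental treatment, were dissected into the pharyngeal blood sinus (PS), the stomach blood sinus (SS) and the central cardiac tube (C), and the pieces of several hearts were pooled. The 2 sinuses are the vessels at the ends of the heart, and the tube between them is its contractile muscle. Each heart part was sequenced as 2 libraries, 6 in all. Pericardial cells had been removed, and each sinus sample kept some of the neighbouring tube muscle, so a sinus library also holds heart muscle. Nothing states that the pools of a group came from different animals, so the p-values measure the spread between these pooled libraries, which may be technical.

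A C2H2 zinc finger is a short protein loop in which a pair of cysteines and a pair of histidines hold a zinc ion, and a short helix in the loop reads a few bases of DNA. Proteins of this class usually carry several fingers in a row, which lets them recognise longer sites, and many act as activators or repressors of transcription, while others bind RNA or proteins. The class is among the largest groups of DNA-binding proteins in animals. In ascidian embryos, C2H2 proteins such as Macho-1, Zic and Snail take part in the early choice between muscle, nerve cord and notochord fates. The symbols of the 72 genes name the domain and a running number (1 to 151), so no role of the single gene is given by its name, and none is assigned here.

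The libraries held between 1412759 (PS replicate 2) and 1950483 (C replicate 2) adjusted reads over the listed genes, of which 26953 to 32260 fell on the C2H2 genes. These adjusted values do not give the sequencing depth, and counting intervals are therefore not given. Of the 72 genes, 70 to 72 were above 0 in each library. Levels are given as FPKM, the deposited reads scaled to the length of the gene and to the size of the library over the listed genes. Heart muscle symbols, 8 of 12 of which were in the table, summed to 54007 and 48762 FPKM in the PS, 66315 and 67992 FPKM in the SS and 123319 and 130930 FPKM in the cardiac tube, and the labelled heart muscle was thus present in every library. Most of that sum came from if-a, an intermediate filament symbol, without which the other 7 summed to 8827 and 9035 FPKM in the PS, 10190 and 10461 FPKM in the SS and 13203 and 12623 FPKM in the cardiac tube. In such bulk samples, fewer cells of a type and less RNA per cell cannot be told apart.

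Most of the C2H2 genes were transcribed at low to moderate levels in all 3 parts of the heart. The mean FPKM over the 6 libraries ran from 0.611 for zf(c2h2)-6 to 1391 for ci-zf(c2h2)-144, with a median of 46.2 and quartiles of 18.1 and 93.8. The median of the 721 other listed genes was 89.4 FPKM, and that of the 82 listed zinc finger genes of other classes was 100.2 FPKM. Of the 72 genes, 10 had a mean under 10 FPKM, 46 lay between 10 and 100 FPKM, and 16 lay above 100 FPKM. A total of 70 were above 0 in all 6 libraries, the exceptions being zf(c2h2)-6 and zf(c2h2)-43. The share of genes whose libraries lay close together was near that of the other listed genes, while widely spread genes were fewer. Among genes above 0 in every library, the highest library was at least 3 times the lowest in 3 of 70 C2H2 genes. The other listed genes had 101 of 697. In 53 of the 72 genes (73.6%) the highest library was less than 2 times the lowest, against 69.9% of the other listed genes, and in 31 (43.1%) it was less than 1.5 times the lowest, against 46.0%. Among the 82 other zinc finger genes, which had higher levels, these shares were 90.2% and 59.8%. These shares are descriptions and were not compared with a test.

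**Figure D1:**
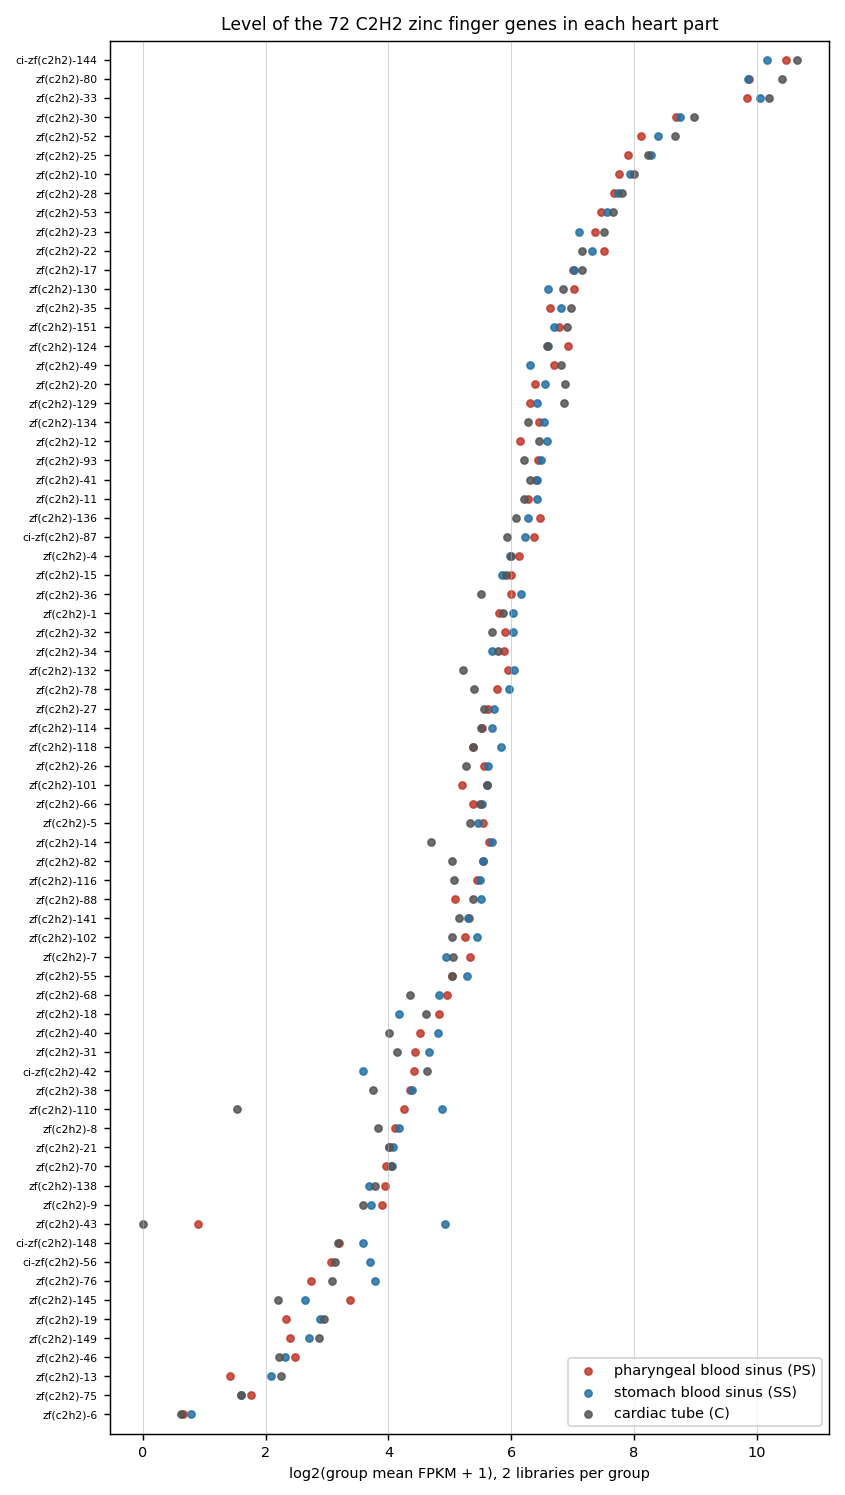
Mean level of each of the 72 C2H2 zinc finger genes in the pharyngeal (PS) and stomach (SS) blood sinuses and in the cardiac tube (C), on a log2(FPKM + 1) axis, with genes ordered by their mean over the 6 libraries and each point the mean of 2 libraries. For most genes the 3 points lie close together, while zf(c2h2)-43 (highest in SS) and zf(c2h2)-110 (lowest in C) stand apart.

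The 3 genes above 1000 FPKM carried a large part of the C2H2 transcripts. The most abundant, ci-zf(c2h2)-144, had 1335 and 1500 FPKM in the PS, 1099 and 1197 FPKM in the SS and 1755 and 1460 FPKM in the cardiac tube. The SS libraries lay below all of the others, while the PS and cardiac tube libraries overlapped. For zf(c2h2)-80, values of 976 and 892 FPKM in the PS and 830 and 1032 FPKM in the SS stood against 1452 and 1279 FPKM in the cardiac tube. All 4 sinus libraries were below both cardiac tube libraries for this gene. The third, zf(c2h2)-33, had 908 and 923 FPKM in the PS, 1038 and 1093 FPKM in the SS and 1222 and 1137 FPKM in the cardiac tube, and its 3 groups did not overlap. The next 7 genes by level, zf(c2h2)-30, zf(c2h2)-52, zf(c2h2)-25, zf(c2h2)-10, zf(c2h2)-28, zf(c2h2)-53 and zf(c2h2)-23, had means between 161 and 448 FPKM over the 6 libraries. Within these 7 the steadiest was zf(c2h2)-28, whose libraries spanned 201 and 204 FPKM in the PS, 209 and 217 FPKM in the SS and 229 and 215 FPKM in the cardiac tube, a 1.14-fold range.

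Each sinus was set against the cardiac tube, a comparison that asks what distinguishes the vessels from the heart muscle, and the sinuses were set against each other to ask how alike they are. Differences are given on the log2(FPKM + 1) scale with their standard error from limma, fitted over all 793 genes, and a gene was called where p, adjusted over all 793 genes by the Benjamini-Hochberg method, was under 0.05. On this scale changes of low genes are understated.

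A single C2H2 gene, zf(c2h2)-43, passed the test in any of the 3 comparisons, and it was highest in the stomach blood sinus. Its level was 1.14 and 0.571 FPKM in the PS, 19.0 and 39.3 FPKM in the SS, and it was listed at 0 in both cardiac tube libraries. Only the SS libraries held more than a trace, as these values rest on 2 and 1 adjusted reads in the PS, 35 and 69 in the SS and 0 and 0 in the cardiac tube. It was higher in the SS than in the cardiac tube by 4.83 ± 0.49 on the log2(FPKM + 1) scale (95% interval 3.63 to 6.03, limma adjusted p = 0.0242). That value depends on the pseudocount and bounds no fold change, since the gene is listed at 0 in the cardiac tube. It was lower in the PS than in the SS by a log2 difference of -3.95 ± 0.49 (95% interval -5.15 to -2.76, limma adjusted p = 0.0299). Between the PS and the cardiac tube the difference was 0.87 ± 0.49 (adjusted p = 0.353), which did not pass.

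The calls of zf(c2h2)-43 did not hold in 4 of the fits that leave out a library, while its differences stayed close in size. Against the cardiac tube, its adjusted p in limma was 0.276 without C replicate 1, 0.274 without C replicate 2, 0.0762 without SS replicate 1 and 0.159 without SS replicate 2. The differences were then between 4.23 and 5.43, and these 4 fits called 0 of 793 genes in that comparison, where the fit of all libraries called 13. Against the PS, it was 0.222 and 0.225 without C replicates 1 and 2, and 0.0839 and 0.280 without SS replicates 1 and 2. Here the differences were -3.95, -3.95, -4.55 and -3.36, and 0, 0, 1 and 0 of 793 genes were called, where the fit of all libraries called 10. These fits leave 1 residual degree of freedom. The fits without a PS library took a fully pooled spread (infinite prior degrees of freedom), so the calls they kept say nothing of stability.

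Genes of cilia, sperm and the germ line were also high in the SS. A list of 13 such symbols, put together with earlier results of these data known, had 11 in the table, and they summed to 126 and 62.0 FPKM in the PS, 332 and 750 FPKM in the SS and 118 and 93.7 FPKM in the cardiac tube. The SS library with the higher list sum (replicate 2) also had more zf(c2h2)-43, but an order over 2 libraries cannot show a link. That library also had more zf(c2h2)-110 (12.8 and 43.8 FPKM in the SS), which is not on the list, and no more of the listed dlc. Of the 11 symbols, 10 had a positive SS minus C difference, with a median of 2.24 on the log2(FPKM + 1) scale, against 0.02 over all 793 genes, and dlc, dead1a, soxh and dnal1 were called higher in limma. Each of the 11 was above 0 in every library apart from dlc, a dynein light chain symbol, which had 0 and 1.13 FPKM in the PS, 62.6 and 61.1 FPKM in the SS and 5.71 and 4.32 FPKM in the cardiac tube. Stomach and gut symbols, 6 of 7 of which were in the table, summed to 440 and 355 FPKM in the PS, 420 and 438 FPKM in the SS and 323 and 300 FPKM in the cardiac tube. Single gut symbols differed more than this sum and in both directions. Of the 6, 4 had a positive SS minus C difference and 3 a positive PS minus C difference. The symbol ipf1 had 123 and 28.5 FPKM in the PS, 78.5 and 50.7 FPKM in the SS and 0 and 1.51 FPKM in C. In limma it was called higher in both sinuses than in C (adjusted p = 0.0216 for the PS and 0.0438 for the SS). Another, hnf6, had 15.2 and 13.7 FPKM in the PS, 0.188 and 0.198 FPKM in the SS and 0 in both C libraries. In foxa-a the direction was opposite, with 6.11 and 4.58 FPKM in C. It had 0.417 and 0.627 FPKM in the PS and 0.995 and 0.834 FPKM in the SS. In limma it was called lower in the PS than in C (adjusted p = 0.0415), but not in the SS (adjusted p = 0.0991). The difference of gh18 from C was -1.60 in the PS and 0.58 in the SS, and neither passed. The part of the cells of these lists in the zf(c2h2)-43 difference was not tested.

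**Figure D2:**
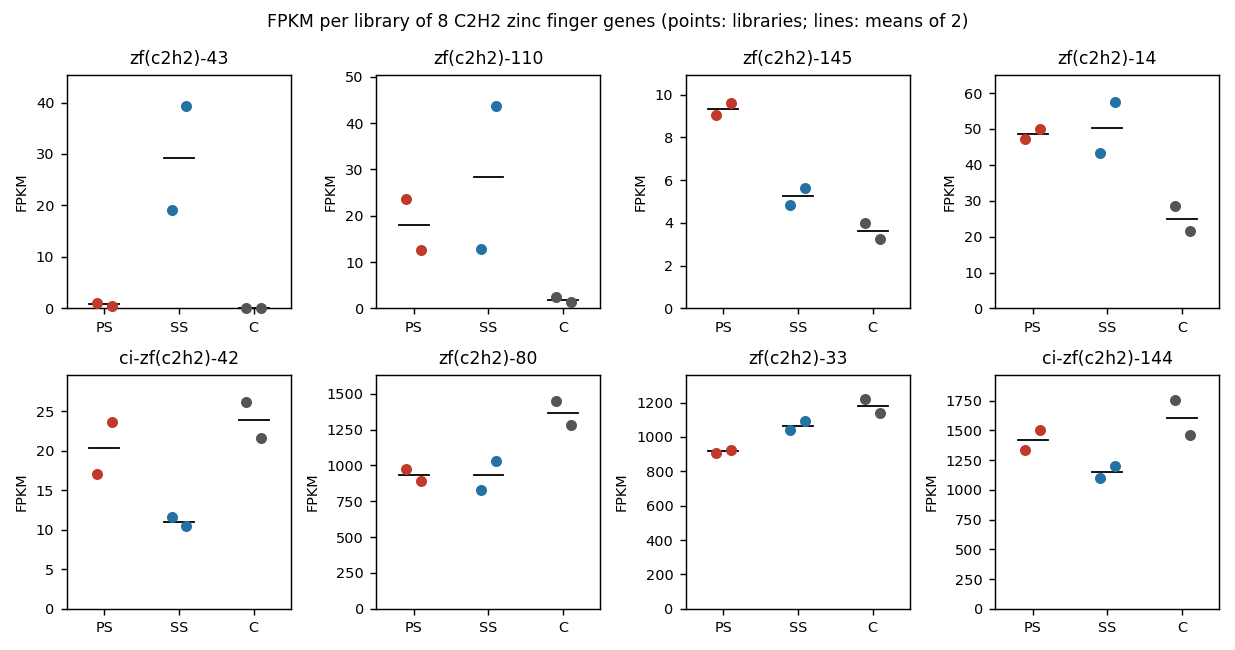
FPKM in each library (points) and the mean of 2 libraries (lines) for 8 C2H2 zinc finger genes in the pharyngeal (PS) and stomach (SS) blood sinuses and in the cardiac tube (C), each panel with its own linear axis from 0. zf(c2h2)-43 reached 19.0 and 39.3 FPKM in SS and was at or near 0 elsewhere, zf(c2h2)-110 and zf(c2h2)-14 were higher in all 4 sinus libraries than in C, and zf(c2h2)-80 was lower in them.

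The sum of an endostyle and pharynx list was high in the PS, and the sum of blood cell symbols was somewhat higher there. The first list had 6 of 9 symbols in the table, namely endostyle-specific, pax3/7-like, th, tgfbeta2, sfrp3/4-b and foxE. They summed to 927 and 1627 FPKM in the PS, 411 and 430 FPKM in the SS and 311 and 285 FPKM in C. The symbol endostyle-specific alone had 128 and 1010 FPKM in the PS. A positive PS minus C difference was seen in 6 of 6 (median 2.81), and that of foxE was 0.33 (limma adjusted p = 0.727). The paper proposes that its endostyle genes likely reflect some tissue carried over in dissection, and it links tgfb2 to the arterial pole. Whether the list measures pharynx tissue was not tested. Blood cell symbols, with 5 of 11 in the table, summed to 17181 and 14217 FPKM in the PS, 9520 and 11573 FPKM in the SS and 12856 and 12265 FPKM in the cardiac tube, and 5 of 5 had a positive PS minus C difference (median 0.38). No blood cell symbol was called in that comparison (limma adjusted p of 0.105 to 0.552). Both lists were put together with earlier results of these data known, so their counts of positive differences are descriptions and not a test. Over all 793 genes, 395 had a positive PS minus C difference (median -0.00). None of the endostyle, pharynx and blood cell symbols was at 0 in any library. The part of such cells in the PS differences that follow was not tested.

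In the pharyngeal blood sinus against the cardiac tube, no C2H2 gene passed the adjusted threshold in limma, higher (0 of 72, against 5.04% of all 793 genes) or lower (0 of 72, against 2.4%). At an unadjusted p under 0.05 there were 8 of 72 genes, or 11.1%, where the whole table had 23.3%. The gene with the largest difference was zf(c2h2)-110, with 23.5 and 12.5 FPKM in the PS against 2.43 and 1.38 FPKM in the cardiac tube. Both PS libraries lay well above both cardiac tube libraries, at a log2 difference of 2.67 ± 0.65 (95% interval 1.08 to 4.27, limma adjusted p = 0.0639). Its cardiac tube values rest on 5 and 3 adjusted reads. Whether it passed depended on the libraries and the fit. The adjusted p in limma was 0.0477 and 0.0449 without SS replicates 1 and 2, 0.0130 with all libraries scaled to the same total FPKM and 0.0495 with libraries centred on the same median. It was 0.287 and 0.375 without C replicates 1 and 2, 0.143 with no variance trend and 0.169 with a pseudocount of 10. Without PS replicate 1 or 2 it passed as well, at differences of 2.02 and 3.33, under the pooled spread described above.

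A second gene above a log2 difference of 1, zf(c2h2)-145, had 9.03 and 9.62 FPKM in the PS, against 3.99 and 3.23 FPKM in the cardiac tube (1.17 ± 0.36, limma adjusted p = 0.118). Together with zf(c2h2)-110 it made 2 of 72 genes at least 1 higher, where 6.94% of all genes were, and 0 of 72 were at least 1 lower, where 3.03% were. Just below that size came zf(c2h2)-14, with 47.3 and 49.9 FPKM in the PS against 28.5 and 21.5 FPKM in the cardiac tube (0.95 ± 0.28, limma adjusted p = 0.104). The libraries of the PS and the cardiac tube did not overlap for these 3 genes. For zf(c2h2)-132 the PS had 49.1 and 71.9 FPKM and the cardiac tube 44.4 and 28.2 FPKM, and for zf(c2h2)-68 the PS had 28.3 and 31.9 FPKM and the cardiac tube 17.9 and 20.9 FPKM. Neither passed (limma adjusted p = 0.250 and 0.297).

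Among the genes with lower values in the PS, zf(c2h2)-80 came closest to the threshold, at a log2 difference of -0.55 ± 0.15 (95% interval -0.91 to -0.18, limma adjusted p = 0.0860). It passed without either SS library, without PS replicate 1 under the pooled spread described above, and with libraries centred on the same median, where 3 of the 72 genes and 87 of all 793 genes passed. With libraries scaled to the same total FPKM its difference was -0.14 (limma adjusted p = 0.432). With no variance trend its limma adjusted p was 0.249. It also did not pass without C replicate 1, C replicate 2 or PS replicate 2, at differences of -0.40, -0.69 and -0.46. The difference of zf(c2h2)-33 was -0.36 (limma adjusted p = 0.103). For zf(c2h2)-129 the libraries had 84.1 and 72.8 FPKM in the PS and 111 and 120 FPKM in the cardiac tube (-0.55 ± 0.17, limma adjusted p = 0.120). For zf(c2h2)-52 they had 275 and 275 FPKM in the PS and 460 and 348 FPKM in the cardiac tube (-0.54 ± 0.20, limma adjusted p = 0.179). In each of these 4 genes both PS libraries were below both cardiac tube libraries. Wider spreads went with zf(c2h2)-20 (99.5 and 66.2 FPKM in the PS, 105 and 128 FPKM in the cardiac tube), zf(c2h2)-13 (1.44 and 1.93 FPKM in the PS, 3.40 and 4.13 FPKM in the cardiac tube) and zf(c2h2)-19 (6.56 and 1.46 FPKM in the PS, 2.95 and 10.4 FPKM in the cardiac tube). Of these, zf(c2h2)-19 alone had PS and cardiac tube libraries that overlapped. The lowest log2 difference, that of zf(c2h2)-13, was -0.83 ± 0.43 (limma adjusted p = 0.316).

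In the stomach blood sinus against the cardiac tube, 1 of 72 C2H2 genes was called higher, zf(c2h2)-43, where 1.26% of all 793 genes were, and 0 of 72 were called lower, where 0.378% were. At an unadjusted p under 0.05 there were 13 of 72 genes, or 18.1%, against 23.0% of all genes. Next in size after zf(c2h2)-43 came zf(c2h2)-110, with 12.8 and 43.8 FPKM in the SS against 2.43 and 1.38 FPKM in the cardiac tube. Both SS libraries were higher than both cardiac tube libraries but differed between themselves by more than 3 times, and the log2 difference of 3.12 ± 0.65 did not pass (95% interval 1.53 to 4.72, limma adjusted p = 0.0788). It was 4.29 without SS replicate 1 and 1.96 without SS replicate 2, and it passed when libraries were scaled to the same total (limma adjusted p = 0.0152) or centred on the same median (limma adjusted p = 0.0378). It also passed without either PS library, in the fits with a fully pooled spread, which take no account of the gap between its SS libraries.

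The genes with the next highest differences had moderate levels. For zf(c2h2)-14 the SS had 43.4 and 57.4 FPKM and the cardiac tube 28.5 and 21.5 FPKM (0.98 ± 0.28, limma adjusted p = 0.119). For zf(c2h2)-132 the SS had 60.6 and 69.4 FPKM and the cardiac tube 44.4 and 28.2 FPKM (0.85 ± 0.32, limma adjusted p = 0.187). For zf(c2h2)-40 the SS had 30.2 and 24.0 FPKM and the cardiac tube 13.6 and 16.5 FPKM (0.81 ± 0.30, limma adjusted p = 0.182). In all 3 the SS libraries lay above the cardiac tube libraries, and none passed. The same was seen for zf(c2h2)-76, with 10.3 and 15.3 FPKM in the SS and 5.72 and 9.19 FPKM in the cardiac tube (limma adjusted p = 0.496).

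The gene with the lowest value was ci-zf(c2h2)-42, which had 11.6 and 10.5 FPKM in the SS against 26.1 and 21.6 FPKM in the cardiac tube, a log2 difference of -1.04 ± 0.32 (95% interval -1.84 to -0.25, limma adjusted p = 0.132). Its PS libraries, with 17.0 and 23.6 FPKM, overlapped those of the cardiac tube. It was the only 1 of the 72 genes at least 1 lower on the log2 scale, where 1.51% of all genes were, and zf(c2h2)-43 and zf(c2h2)-110 were the 2 at least 1 higher, where 7.44% were. Smaller negative differences were measured for zf(c2h2)-80 (-0.56 ± 0.15, limma adjusted p = 0.110) and ci-zf(c2h2)-144 (-0.48 ± 0.14, limma adjusted p = 0.123). This pair passed when either PS library was left out, again under the fully pooled spread, where 90 and 92 of all 793 genes passed. For zf(c2h2)-49 the SS had 81.2 and 75.7 FPKM and the cardiac tube 116 and 108 FPKM (-0.51 ± 0.17, limma adjusted p = 0.154). For zf(c2h2)-129 the SS had 82.7 and 85.6 FPKM and the cardiac tube 111 and 120 FPKM (-0.45 ± 0.17, limma adjusted p = 0.194). For zf(c2h2)-18 the SS had 18.5 and 15.6 FPKM and the cardiac tube 19.0 and 28.0 FPKM (-0.42 ± 0.34, limma adjusted p = 0.511). The SS libraries were below the cardiac tube libraries in each of these genes, for zf(c2h2)-18 by a small gap.

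Between the sinuses, 1 of 72 genes was called lower in the PS than in the SS, zf(c2h2)-43, where 0.504% of all genes were, and 0 of 72 were called higher, where 0.757% were. At an unadjusted p under 0.05 there were 5 of 72 genes, or 6.94%, against 14.9% of all genes. No gene was at least 1 higher in the PS (0 of 72, against 4.41% of all genes), and zf(c2h2)-43 and zf(c2h2)-76 were the 2 at least 1 lower (against 5.67%). For zf(c2h2)-76 the PS had 8.49 and 2.84 FPKM and the SS 10.3 and 15.3 FPKM (-1.17 ± 0.55, limma adjusted p = 0.412). Without PS replicate 1 it passed too, under the fully pooled spread, and the count was then 2 of 72 and 57 of all 793 genes.

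At the other end, ci-zf(c2h2)-42 had 17.0 and 23.6 FPKM in the PS against 11.6 and 10.5 FPKM in the SS (0.81 ± 0.32, limma adjusted p = 0.329). For zf(c2h2)-145 the PS had 9.03 and 9.62 FPKM and the SS 4.85 and 5.65 FPKM (0.73 ± 0.36, limma adjusted p = 0.420). For zf(c2h2)-130 the PS had 125 and 134 FPKM and the SS 95.2 and 97.6 FPKM (0.42 ± 0.15, limma adjusted p = 0.282). The sinus libraries did not overlap in these 3 genes. The difference of zf(c2h2)-110 between the sinuses was -0.45 ± 0.65, with an interval of -2.04 to 1.14 that does not show whether its levels were alike. The remaining genes at the extremes, zf(c2h2)-18, zf(c2h2)-7, zf(c2h2)-49, zf(c2h2)-19, ci-zf(c2h2)-56 and zf(c2h2)-13, had differences of -0.77 to 0.63, with limma adjusted p of 0.392 to 0.762.

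**Figure D3:**
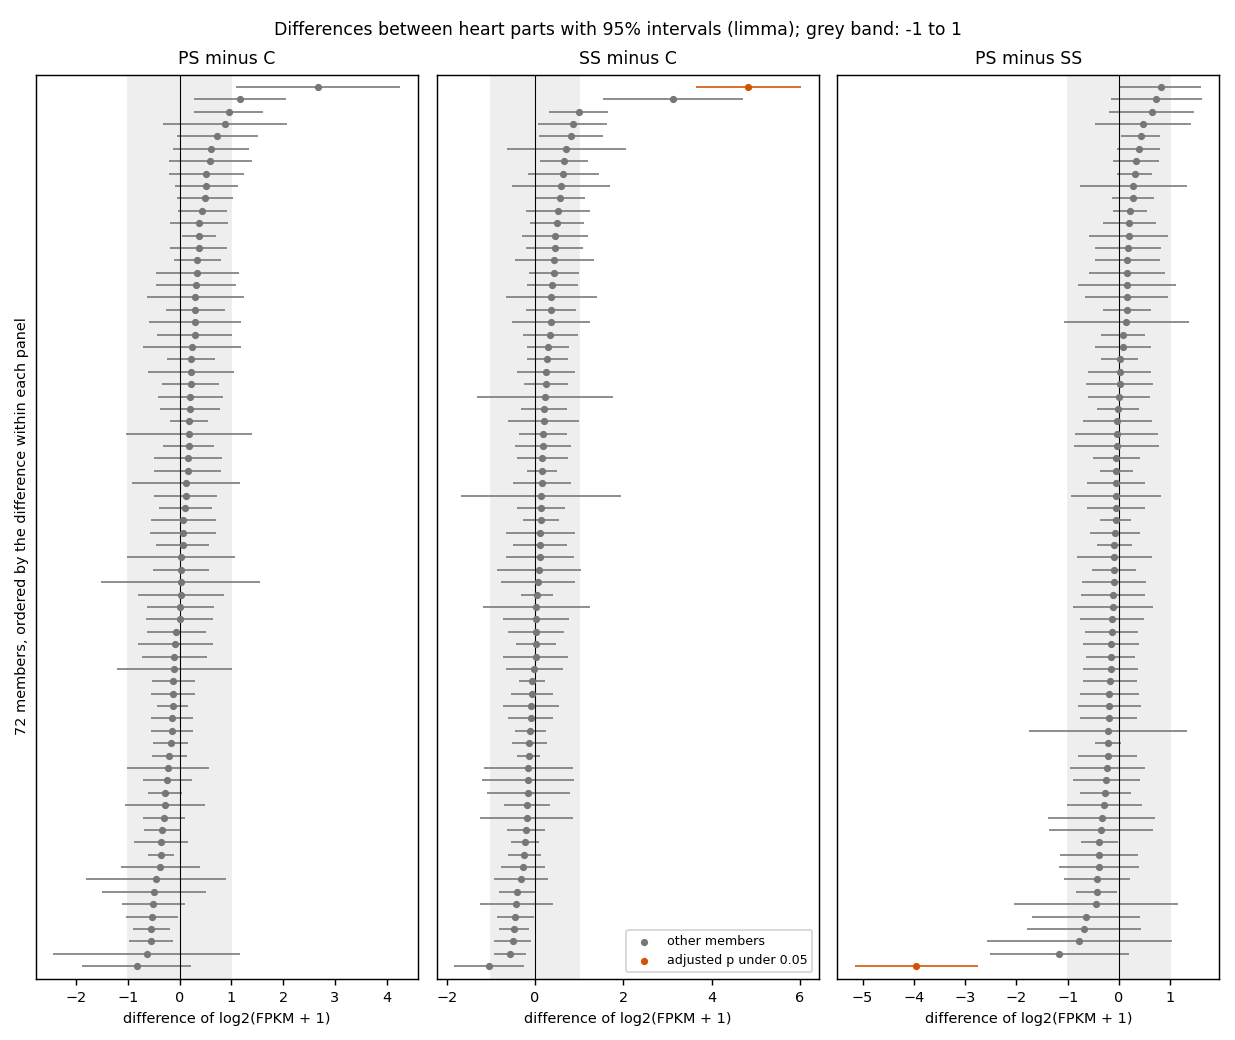
Differences of log2(FPKM + 1) with 95% intervals from limma for the 72 C2H2 zinc finger genes, for PS minus C, SS minus C and PS minus SS, each panel ordered by its own difference and with a grey band from -1 to 1. The single orange gene in the SS minus C panel (4.83) and in the PS minus SS panel (-3.95) is zf(c2h2)-43, and no gene is orange in the PS minus C panel.

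For many of the 72 genes the data bounded the size of a difference. The whole 95% interval lay within -1 to 1 on the log2 scale in 41 of 72 genes for the PS against the cardiac tube (62.0% of all 793 genes), in 45 for the SS against the cardiac tube (63.6%) and in 52 between the sinuses (70.0%). As shares of the 72 genes these are 56.9%, 62.5% and 72.2%, near those of the whole table. For the other 82 zinc finger genes, which had higher levels, the counts were 69, 65 and 72, and 1 of them was called, lower in the PS than in the cardiac tube. The median standard error was 0.26 for the C2H2 genes and 0.21 for all genes. In absolute size, the median log2 difference was 0.26 for the PS against the cardiac tube (0.26 for all genes), 0.23 for the SS against the cardiac tube (0.26 for all genes) and 0.18 for the PS against the SS (0.19 for all genes).

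Above 10 FPKM, the direction of the small differences followed the level of the gene. Of the 10 C2H2 genes under 10 FPKM, 5 were positive for the PS and 8 for the SS against the cardiac tube. In the PS against the cardiac tube, 13 of the 16 C2H2 genes above 100 FPKM had negative differences and 35 of the 46 genes between 10 and 100 FPKM had positive differences, with medians of -0.19 and 0.19. The other listed genes split the same way, with 218 of 344 negative above 100 FPKM and 165 of 281 positive between 10 and 100 FPKM. In the SS against the cardiac tube, 13 of 16 were negative above 100 FPKM (222 of 344 other genes) and 36 of 46 were positive between 10 and 100 FPKM (195 of 281 other genes), with medians of -0.16 and 0.19. Both comparisons use the same cardiac tube libraries. Between the sinuses, 9 of 16 were negative above 100 FPKM and 15 of 46 were positive between 10 and 100 FPKM. With libraries scaled to the same total FPKM, the split above 100 FPKM turned round, to 2 of 16 negative for the PS and 3 of 16 negative for the SS against the cardiac tube, while 44 and 42 of the 46 were positive. That scaling moved the median of all genes by 0.39 and 0.42. With libraries centred on the same median the split above 100 FPKM stayed, at 13 and 15 of 16 negative. Between 10 and 100 FPKM it was weaker, with 29 and 30 of the 46 positive.

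Over all 72 genes, the median difference was 0.07 for the PS against the cardiac tube, with 43 positive, where the median of all 793 genes was -0.00. It was 0.12 for the SS against the cardiac tube, with 47 positive (0.02 for all genes), and -0.07 between the sinuses, with 25 positive (-0.00 for all genes). The PS libraries lay wholly above the cardiac tube libraries in 23 genes (30.0% of all genes) and wholly below in 15 (31.7%). For the SS against the cardiac tube the counts were 27 above (31.1%) and 14 below (30.3%). Between the sinuses the PS was wholly above in 11 genes (26.6%) and wholly below in 18 (24.8%). As shares of the 72 genes, the counts above were 31.9%, 37.5% and 15.3% and the counts below 20.8%, 19.4% and 25.0%.

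Summed over the 72 genes, the FPKM was 7894 and 7967 in the PS, 7751 and 8311 in the SS and 9368 and 8651 in the cardiac tube. The group means were 7930 ± 51.5 for the PS, 8031 ± 396 for the SS and 9010 ± 507 for the cardiac tube (SD, n = 2 each), and all 4 sinus libraries were lower than both cardiac tube libraries. With 2 libraries against 2, an exact two-sided permutation test cannot go below p = 0.333. The 3 most abundant genes took a large part of that gap. Without them the sums were 4675 and 4652 in the PS, 4784 and 4989 in the SS and 4939 and 4774 in the cardiac tube, so that the SS and the cardiac tube overlapped and the PS remained below both.

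As a share of all listed FPKM the order was the opposite. The 72 genes made up 1.33% and 1.42% in the PS, 1.42% and 1.38% in the SS and 1.21% and 1.15% in the cardiac tube. The total over all listed genes was 560813 to 592159 FPKM in the PS, 546774 to 601683 FPKM in the SS and 750972 to 777369 FPKM in the cardiac tube. The summed level of the heart muscle symbols given above was likewise higher in the cardiac tube, and its part in the share of the C2H2 genes was not tested. A typical C2H2 gene, by the median of the 72 genes in each library, had 47.5 and 48.4 FPKM in the PS, 49.1 and 52.2 FPKM in the SS and 44.5 and 38.8 FPKM in the cardiac tube.

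**Figure D4:**
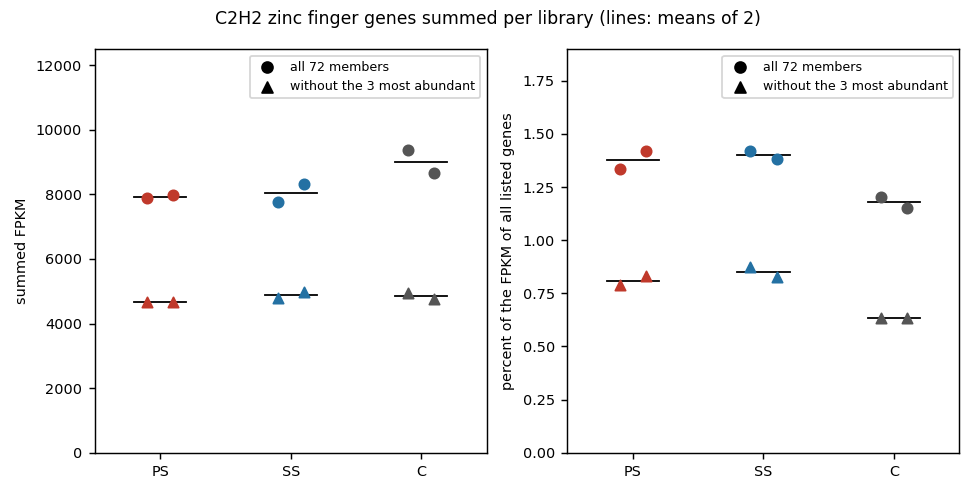
Summed FPKM of the C2H2 zinc finger genes (left) and their percentage of the FPKM of all listed genes (right) in each library of the PS, SS and C, for all 72 genes (circles) and without the 3 most abundant (triangles), with lines at the mean of 2 libraries. The summed FPKM of all 72 genes was lower in the 4 sinus libraries than in C, while their share was higher.

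A wider list of C2H2 regulators known under their own names matched 2 genes of the table, gli and klf2, and neither was called in any comparison. The transcription factor at the end of the Hedgehog pathway, gli, had 238 and 236 FPKM in the PS, 221 and 289 FPKM in the SS and 480 and 378 FPKM in the cardiac tube. All 4 sinus libraries were lower, at log2 differences of -0.84 ± 0.19 for the PS (limma adjusted p = 0.0502) and -0.75 ± 0.19 for the SS (limma adjusted p = 0.103) against the cardiac tube. In vertebrates, the factor Klf2 responds to blood flow in the lining of vessels. The klf2 symbol had 1742 and 1726 FPKM in the PS, 1457 and 1439 FPKM in the SS and 1857 and 1865 FPKM in the cardiac tube, with the SS lowest (-0.36 ± 0.10 against the cardiac tube, limma adjusted p = 0.119). Whether near-identical C2H2 genes share reads could not be checked, and their values are uncertain to that extent.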

How the data were processed

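RNA-seq values of 6 libraries from 3 parts of the adult Ciona heart were analysed. Per the paper, the authors trimmed reads with cutadapt, aligned them with STAR, counted unique reads with featureCounts and removed 1 factor of unwanted variation with RUVs within DESeq2; tool versions are stated with the zebrafish libraries of the study, and these libraries are said to have been handled alike on a Ciona genome. The authors computed FPKM, as deposited, from reads adjusted in this way. The deposited columns headed raw are not raw reads: over 179 genes above a mean of 1000, the replicate differences were tied (singular values 2.43, 1.79 and 0.00279). These deposited values, from which the authors had removed the factor, were treated as a score, and no count model was used. Columns with the authors' fold changes, p-values and group averages were not used.

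The tool was limma 3.58.1 (R 4.3.3), applied to log2 values of FPKM with a pseudocount of 1, and the model held 3 groups, a term for the removed factor and a variance trend, no filter, and Benjamini-Hochberg adjustment over 793 genes. This left 2 residual degrees of freedom. The fit was tested on simulated data. Genes named in the text are those called, the 6 highest and 6 lowest differences per comparison among genes of at least 1 FPKM, the 10 most abundant and those listed at 0 in both libraries of a group. The members, lists and fit were chosen with earlier results of these data known. Marker lists were matched by symbol. Alternatives changed the factor term, trend, measure, pseudocount, filter, scaling, replicate term and libraries. None of the symbols matched the RefSeq gene table (0 of 72), and neither coordinates nor sequences were used here.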

Additional observations from a re-analysis of the deposited data

Results flagged for a closer look

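The difference of zf(c2h2)-43 between the sinuses stood out because its effect against the cardiac tube differed between the pharyngeal and the stomach blood sinus in a test of that difference itself. It was -3.95 ± 0.49 on the log2(FPKM + 1) scale (limma adjusted p = 0.0299), and lower in 2 of 2 pharyngeal libraries than in both stomach sinus libraries. Groups of 2 libraries are too small for a check of single outlying libraries.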

How the results depend on the processing

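Counts of C2H2 genes called (0 for the PS against C, 1 for the SS against C, 1 for the PS against the SS) depended on the fit. For the PS against C the count was 7 in a fit of groups alone, without the factor term (4 higher, 3 lower, and 151 in place of 59 over all genes), 1 on adjusted reads divided by size factors (chosen after seeing the data, 72 over all genes), 5 with equal total FPKM (124), 3 with equal medians (87) and 0 to 2 with single libraries left out. For the SS against C it was 6, 2, 6 and 4 under the same settings (113, 32, 114 and 76 in place of 13 over all genes), 0 with no variance trend, on adjusted reads or with the replicate block added (0 over all genes each), 0 with a pseudocount of 10 (2), and 0 to 4 with single libraries left out. For the PS against the SS it was 0 on adjusted reads (7 in place of 10 over all genes), with a pseudocount of 0.1 (2), without genes of mean FPKM under 5 (3) or with the replicate block added (0), and 0 to 2 with single libraries left out. The adjusted p of zf(c2h2)-43 ran from 0.00319 to 0.206 (SS against C) and from 0.00565 to 0.220 (PS against SS) over settings that kept all libraries, and its direction never changed. Its SS minus C difference was 1.92 with a pseudocount of 10 and 8.10 with 0.1, by construction of the scale.

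The summed FPKM ratio was 0.88 (PS over C) and 0.89 (SS over C). With equal totals it was 1.17 and 1.19, and without the 3 most abundant genes, a choice made after seeing the data, it was 0.960 and 1.01. With equal totals the difference from C turned to 0.23 (PS) for ci-zf(c2h2)-144 and to 0.042 (PS) and 0.27 (SS) for zf(c2h2)-33. On adjusted reads, zf(c2h2)-80 turned to -0.022 (PS against SS). The cause was not tested beyond these scalings. With single libraries left out, ranges crossed 0 for zf(c2h2)-19 (-1.94 to 0.66) and ci-zf(c2h2)-144 (-0.40 to 0.040) in the PS against C, for zf(c2h2)-18 (-0.88 to 0.042) in the SS against C, and for zf(c2h2)-7 (-0.16 to 1.08), zf(c2h2)-19 (-1.90 to 0.36), zf(c2h2)-110 (-1.61 to 0.71) and zf(c2h2)-80 (-0.22 to 0.24) between the sinuses. Over 42 named differences and 17 settings, 643 values kept their direction and side of the threshold, 39 newly passed, 16 no longer passed and 14 changed sign.

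The removed factor runs close to the replicate number (-0.45 and 0.45 for C replicates 1 and 2, -0.38 and 0.38 for PS, -0.39 and 0.39 for SS), which ties the replicate differences. The correlations of same-numbered libraries (-0.46, -0.54 and -0.46 over 793 genes) therefore could not show a pairing, and as no source states that a number marks shared animals or days, the libraries were not treated as pairs. The replicate block in place of the factor term gave 0, 1 and 1 calls, and added to it 0, 0 and 0, with fewer residual degrees of freedom. Depth is unknown, and 2 libraries per group limit every comparison. Fits without 1 library assume that the lone library varies like the other groups, and those without a PS library used infinite prior degrees of freedom.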

Other observations

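The deposited FPKM values imply a whole-number gene length for 793 of 793 genes (within 0.01) under 1 definition of the library size. This size is the size factor times the geometric mean of the library totals, both over the listed genes alone. The values are thus relative to these genes and not to the whole transcriptome. By these lengths the C2H2 genes had a median of 1912.5 bases, and ran from 458 bases for ci-zf(c2h2)-144 to 4632 bases for zf(c2h2)-36. The weakest genes rested on few reads. For zf(c2h2)-75, with 3.19 and 1.60 FPKM in the PS, 2.44 and 1.60 FPKM in the SS and 1.29 and 2.74 FPKM in the cardiac tube, the adjusted reads were 10 and 5 in the PS, 8 and 5 in the SS and 4 and 9 in the cardiac tube. This gene was chosen after its values were seen.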
